A study of Homo sapiens with 6 samples.

Results

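Aminoacyl-tRNA synthetases are the enzymes that join each amino acid to its tRNA before translation. A set of 36 synthetase genes was examined by RNA-seq in HGC27 cells, an established line derived from gastric cancer. The members were set by gene name, and all 36 were present among the 39739 gene rows. They comprised 20 genes for cytosolic enzymes and 16 for mitochondrial enzymes. *GARS* and *KARS* supply both compartments and were counted with the cytosolic class. HGC27-FN1 3′-UTR cells carried a lentiviral vector that overexpressed the 3′ untranslated region of *FN1*, the fibronectin gene, and were kept as a stable line after puromycin selection. They were compared with HGC27-control cells, whose vector and selection are not given in the sources used here. Each group was 1 line, and each was sequenced as 3 libraries. The labels do not say whether those libraries came from separate cultures, and p-values then measure only the spread between these samples, which may be technical.

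Separate pools of synthetases serve a human cell, one in the cytosol for proteins made from nuclear genes and one imported into mitochondria for the proteins encoded by the mitochondrial genome. Several cytosolic enzymes are held in a multisynthetase complex by scaffold proteins. When amino acids run short or the endoplasmic reticulum is stressed, the transcription factor ATF4 is known to raise many cytosolic synthetase genes together with genes of amino acid synthesis and transport.

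The letters of a C/EBP-ATF response element, through which ATF4 is known to act, were searched for in RefSeq promoter windows of GRCh38.p14, which run from 250 bases before to 50 bases after an annotated start. The search used TGATGNAA on both strands, where N is any base. A window was found for 16 of the 20 cytosolic and 14 of the 16 mitochondrial genes, and *DARS*, *LARS*, *VARS*, *YARS*, *AARS2* and *VARS2* had none in the table used. The letters stood in 7 of the 16 cytosolic promoters (43.75%) and in 1 of the 14 mitochondrial ones (7.14%), against 1217 of 27305 genes (4.46%) with a window. All 8 matches are shown so that their letters, flanks and positions can be set beside the levels of the transcripts, and the match of *ASNS*, the asparagine synthetase gene and a known ATF4 target, is shown for comparison. Each is printed 5′ to 3′ on the strand that carries the letters, with the match in capitals and 8 bases on each side, in the order *AARS* (chr16:70289678-70289701, plus strand), *CARS* (chr11:3057410-3057433, plus), *GARS* (chr7:30594837-30594860, minus), *IARS* (chr9:92293695-92293718, plus), *MARS* (chr12:57488056-57488079, minus), *NARS* (chr18:57621807-57621830, minus), *TARS* (chr5:33440959-33440982, minus), *YARS2* (chr12:32756079-32756102, minus) and *ASNS* (chr7:97872461-97872484, minus).
AARS: aacttggcTGATGCAActgcgaga
CARS: ctagaatcTGATGCAAccgccgcc
GARS: tcggagcaTGATGAAAtcgccgcg
IARS: cacggaggTGATGCAAcgcgctga
MARS: tccctcgcTGATGCAAccggaacc
NARS: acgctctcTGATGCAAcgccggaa
TARS: ggaccagcTGATGCAAtcgaaagg
YARS2: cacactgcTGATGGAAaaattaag
ASNS: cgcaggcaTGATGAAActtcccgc

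Of the 7 cytosolic matches, 6 read TGATGCAA and that of *GARS* read TGATGAAA, as in *ASNS*. The matches of *CARS* and *MARS* spanned the annotated start, from base -2 to 6 and from -4 to 4. Those of *IARS* (from -13 to -6) and *GARS* (from -33 to -26) lay just before it, and those of *TARS* (from 3 to 10) and *NARS* (from 15 to 22) just after it. The matches of *AARS* (from -187 to -180) and *YARS2* (from -197 to -190) lay farther upstream. The *CARS*, *IARS*, *MARS*, *NARS* and *TARS* matches lay wholly within 30 bases of the start, as did a match in 0.6% of all 35116 windows. Positions count from the start of a RefSeq window that held the match, and *CARS*, *GARS* and *TARS* had 2 windows each. That start can differ from the end of the counted gene row. The matches of *MARS* (at 57488064, row from 57475445) and *GARS* (at 30594845, row from 30594681), for example, lie inside their rows. A match is a description of the sequence, and no binding was measured.

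The deposited RPKM values (reads per kilobase of merged exons per 1000000 reads assigned to genes) were whole multiples of 1 read, so the reads were recovered. The libraries held 16357085 to 29202046 reads in HGC27-FN1 3′-UTR cells and 22332816 to 37037532 in HGC27-control cells, and 3 reads, taken as the limit of detection, corresponded to 0.081 to 0.1834 reads per 1000000. This limit covers counting error only. The *FN1* row, which counts all merged exons and so cannot separate the vector-borne 3′-UTR from the native transcript, read 0.777, 0.745 and 0.819 RPKM in HGC27-FN1 3′-UTR cells and 0.543, 0.474 and 0.532 in HGC27-control cells (log2 fold change 0.52 ± 0.11 SE, adjusted p = 0.0292 by limma, and 0.0614 to 0.0982 with any 1 library left out). Gastric markers were at or near 0 in both lines, with a summed RPKM of 0.19 to 0.238 and 0.142 to 0.206. *MUC6* had a mean RPKM of 0.120 and 0.117, and *PGC* and *MUC5AC* had no more than 2 reads per line. *TFF2* and *GKN1* had no gene row under these names. Of the fibroblast list, *COL1A1* (mean RPKM 44.5 and 30.5) and *COL3A1* (111.3 and 82.1) were abundant in both lines. The rest of that list had lower group means, from 0.158 to 11.8 RPKM. The lines were compared gene by gene with limma (two-sided) on log2(RPKM + 0.1). The test took in 23299 genes that reached an RPKM of 0.1 in 3 libraries or more, and a gene was called higher or lower in HGC27-FN1 3′-UTR cells at a Benjamini-Hochberg adjusted p under 0.05. On this scale the fold change of a weakly expressed gene is understated. All 36 synthetases passed the filter.

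Cytosolic synthetase transcripts fell and rose in different members, and more of them fell. Of the 20 cytosolic genes, 9 were lower, 3 were higher and 8 were not called. Over all tested genes, 7.36% were called lower, 5.62% higher and 13.0% in either direction, and among genes with a mean RPKM of at least 1 these shares were 12.7%, 8.27% and 21.0%. Median-ratio scaling turned the split of all calls from 1310 higher and 1715 lower to 1696 and 1331, and the cytosolic counts became 4 and 9. Of the 16 mitochondrial genes, 2 were lower, 0 were higher and 14 were not called. The median log2 fold change was -0.08 for the cytosolic class, -0.01 for the mitochondrial class (0.02 with median-ratio scaling) and -0.04 for all tested genes. No member passed the second criterion of an absolute log2 fold change above 1 with an unadjusted p under 0.05, which 1.65% of tested genes passed as higher, 0.815% as lower and 2.47% in either direction. The difference in counts between the classes was not tested.

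**Figure D1:**
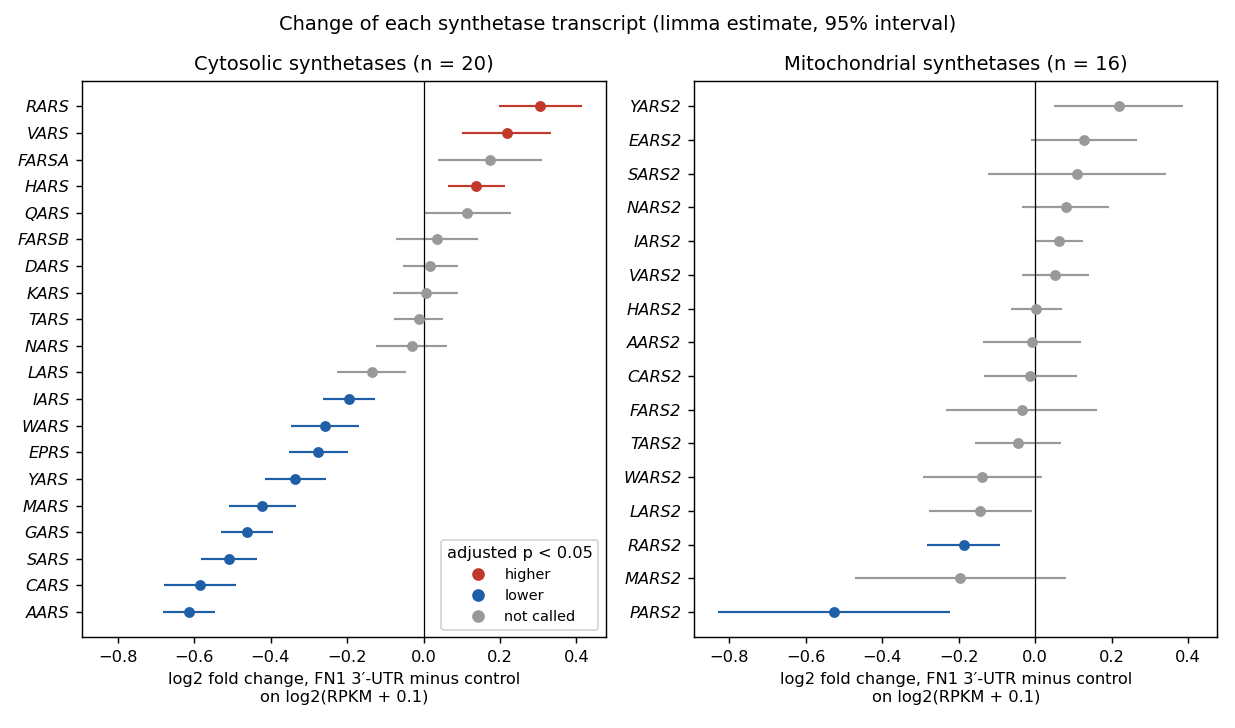
Log2 fold change of each synthetase transcript in HGC27-FN1 3′-UTR cells over HGC27-control cells (horizontal axis), with 95% confidence intervals, in 1 panel for the cytosolic and 1 for the mitochondrial enzymes and with colours for called higher, called lower and not called. The cytosolic genes run from -0.61 for *AARS* to 0.31 for *RARS*, while most mitochondrial intervals include 0.

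The largest decrease among the members was that of *AARS*, which encodes alanyl-tRNA synthetase and lies on the minus strand of chromosome 16 from 70252295 to 70289543 (GRCh38). It read 65.6, 67.1 and 66.7 RPKM in HGC27-FN1 3′-UTR cells and 103.2, 102.9 and 99.1 in HGC27-control cells. The lowest control library was thus well above the highest HGC27-FN1 3′-UTR library, and the transcript fell by 34.7% (log2 fold change -0.61 ± 0.03 SE, adjusted p = 3.60e-04, limma). *SARS*, for seryl-tRNA synthetase (chromosome 1, 109213918 to 109238169, plus strand), read 76.6, 77.6 and 76.7 against 113.0, 109.1 and 106.6 RPKM. *GARS*, for the glycyl enzyme of both compartments (chromosome 7, 30594681 to 30634033, plus strand), read 81.1, 84.3 and 81.7 against 112.3, 115.8 and 112.3 RPKM. Both were among the 5 highest synthetases in the controls and both kept the lines apart, with log2 fold changes of -0.51 ± 0.03 (adjusted p = 6.64e-04, limma) and -0.46 ± 0.03 (adjusted p = 7.63e-04, limma).

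*CARS*, for cysteinyl-tRNA synthetase (chromosome 11, 3000922 to 3057613, minus strand), was the lowest cytosolic member, at 8.94, 9.56 and 9.05 RPKM in HGC27-FN1 3′-UTR cells against 14.0, 13.9 and 13.5 in HGC27-control cells. It fell by 33.5%, nearly as much as *AARS* from a level many times lower (log2 fold change -0.58 ± 0.04, adjusted p = 9.62e-04, limma). *MARS*, for the methionyl enzyme that also charges the initiator tRNA (chromosome 12, 57475445 to 57517569, plus strand), read 12.6, 12.9 and 13.2 against 16.7, 17.7 and 17.4 RPKM and fell by 25.5% (adjusted p = 0.0022, limma). *MARS* shares 355 exonic bases with *DDIT3* on the opposite strand (5.05% of its length), and since the strand setting of the read counting is not given in the sources used here, reads from these bases may count for either gene. *YARS*, for tyrosyl-tRNA synthetase (chromosome 1, 32775237 to 32818153, minus strand), read 22.0, 20.9 and 20.8 against 26.8, 27.1 and 26.4 RPKM and fell by 20.8% (adjusted p = 0.00325, limma).

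Smaller decreases were called for 3 further cytosolic enzymes. *EPRS*, a fusion of the glutamyl and prolyl enzymes (chromosome 1, 219968601 to 220046658, minus strand), read 75.6, 77.9 and 74.6 RPKM against 93.9, 92.8 and 89.3 (log2 fold change -0.27 ± 0.03, adjusted p = 0.00543, limma). *WARS*, for tryptophanyl-tRNA synthetase (chromosome 14, 100333788 to 100376805, minus strand), read 22.3, 23.2 and 21.6 against 26.1, 26.7 and 27.3 RPKM (log2 fold change -0.26 ± 0.04, adjusted p = 0.00993, limma). *IARS*, for isoleucyl-tRNA synthetase (chromosome 9, 92210207 to 92293756, minus strand), read 46.1, 45.9 and 46.9 against 52.1, 54.4 and 52.6 RPKM (log2 fold change -0.20 ± 0.03, adjusted p = 0.0103, limma). In all 3 the libraries of the lines did not overlap. The 9 decreases stayed called in all 6 fits that left out 1 library. The *IARS* call was lost in a fit without a trend in the prior variance (adjusted p = 0.0527, limma).

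Transcripts of 3 cytosolic enzymes were higher in HGC27-FN1 3′-UTR cells. *RARS*, for arginyl-tRNA synthetase (chromosome 5, 168486445 to 168519299, plus strand), read 44.2, 42.0 and 39.8 RPKM against 33.43, 33.40 and 35.01, an increase of 23.8% (log2 fold change 0.31 ± 0.05, adjusted p = 0.0107, limma). Its call was lost without control replicate 2 (adjusted p = 0.0518, limma) and kept without each of the other 5 libraries. *VARS*, for valyl-tRNA synthetase (chromosome 6, 31777518 to 31795953, minus strand), read 52.5, 50.1 and 49.3 against 41.1, 43.5 and 46.0 RPKM, an increase of 16.2% (adjusted p = 0.0354, limma). *HARS*, for histidyl-tRNA synthetase (chromosome 5, 140673173 to 140692024, minus strand), read 23.6, 22.8 and 22.9 against 20.5, 21.1 and 21.4 RPKM, an increase of 10.1% (adjusted p = 0.0372, limma). Neither of these 2 calls was firm. With 1 library left out at a time, *VARS* stayed called only without control replicate 3 (adjusted p = 0.0324, and up to 0.109 in the others, limma) and *HARS* in none of the 6 fits (0.0570 to 0.115). *HARS* also shares 952 exonic bases with *WDR55* and 592 with *HARS2*, both on the opposite strand.

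**Figure D2:**
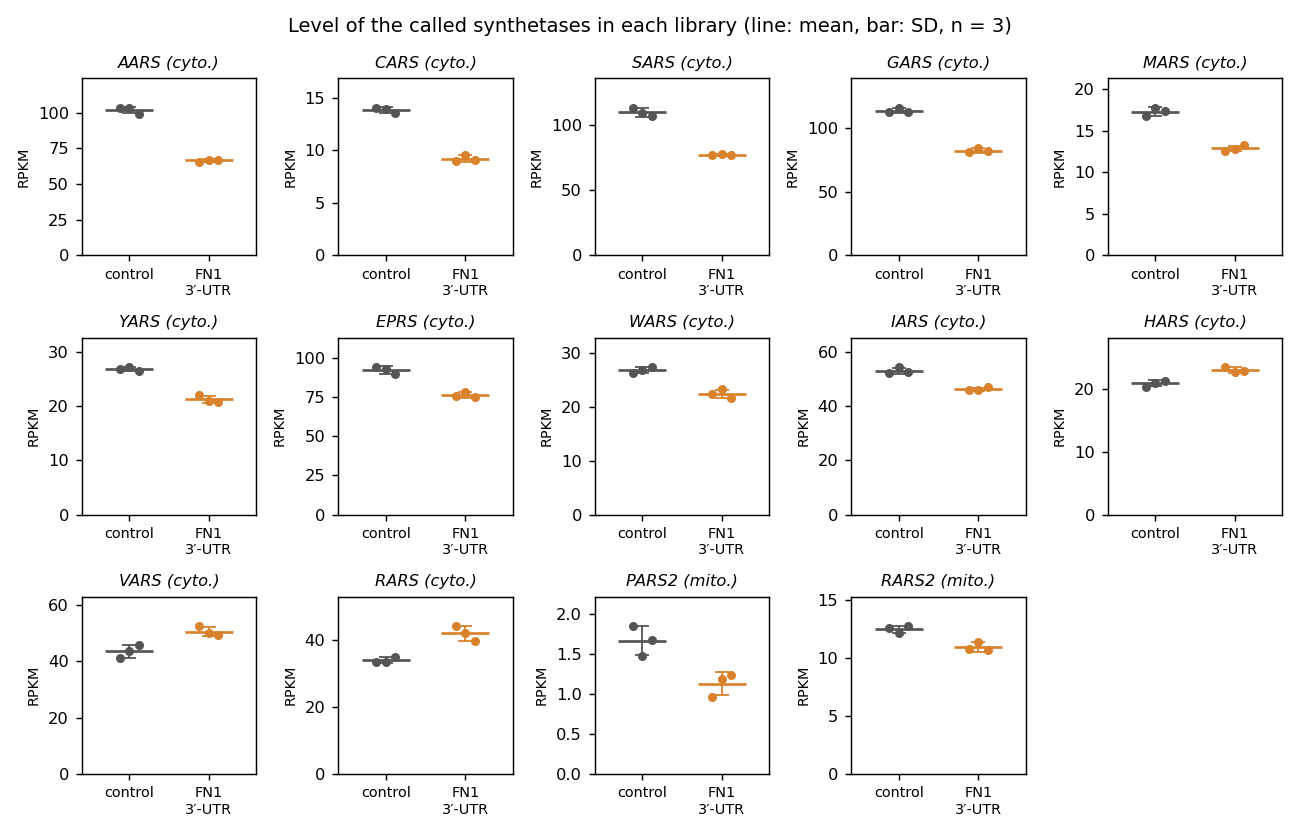
RPKM of the called synthetase transcripts in each library (points) with the mean and SD of each group (n = 3 libraries), in 1 panel per gene, each with its own axis from 0. *AARS*, *SARS* and *GARS* fall from about 100 RPKM in HGC27-control cells to between 65.6 and 84.3 in HGC27-FN1 3′-UTR cells, and *RARS*, *VARS* and *HARS* lie higher in HGC27-FN1 3′-UTR cells.

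The 8 cytosolic genes that were not called included the highest transcripts of the set. *FARSA*, for the alpha subunit of phenylalanyl-tRNA synthetase, stood at 137.1 ± 4.62 RPKM in HGC27-FN1 3′-UTR cells and 121.7 ± 8.71 in HGC27-control cells (SD, n = 3), with no overlap of the lines (adjusted p = 0.0973, limma). Without control replicate 3 it passed the threshold (log2 fold change 0.23, adjusted p = 0.0456, limma). *FARSB*, for the beta subunit of the same enzyme, was at 25.2 ± 0.989 and 24.5 ± 1.03 RPKM. *NARS*, for asparaginyl-tRNA synthetase, was at 116.8 ± 4.98 and 119.3 ± 2.64 RPKM, and *TARS*, for the threonyl enzyme, at 55.6 ± 1.07 and 56.1 ± 0.563. These 2 carry the promoter letters shown above, and the 95% intervals of their log2 fold changes ran from -0.12 to 0.06 and from -0.08 to 0.05. *KARS*, for the lysyl enzyme of both compartments, was at 88.9 ± 2.69 and 88.6 ± 2.53 RPKM, and *DARS*, for the aspartyl enzyme, at 42.2 ± 1.13 and 41.7 ± 0.467. Their intervals, -0.08 to 0.09 and -0.05 to 0.09, exclude a change of the size seen in *AARS*. *LARS*, for leucyl-tRNA synthetase, was at 31.0 ± 1.13 and 34.1 ± 0.839 RPKM, and *QARS*, for the glutaminyl enzyme, at 23.2 ± 0.638 and 21.4 ± 1.16. The lines did not overlap for either gene, with adjusted p-values of 0.0639 and 0.169 (limma). The lines were apart in 10 cytosolic genes that were lower and 5 that were higher, against 21.7% and 14.3% of all tested genes.

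By structure, the cytosolic enzymes divide into class I and class II, which have unrelated catalytic folds, and *EPRS*, whose 2 active sites belong to different classes, was left out of this division. Of 9 class I genes, 5 were lower and 2 higher (*RARS* and *VARS*), with a median log2 fold change of -0.20. Of 10 class II genes, 3 were lower (*AARS*, *GARS* and *SARS*) and 1 was higher (*HARS*), with a median of -0.00. Among the 8 enzymes of the multisynthetase complex, *EPRS*, *IARS* and *MARS* were lower, *RARS* was higher, and *DARS*, *KARS*, *LARS* and *QARS* were not called. These counts stand beside 7.36% of all tested genes called lower and 5.62% higher (12.7% and 8.27% at a mean RPKM of at least 1). The 3 scaffold genes of the complex also moved both ways. *AIMP2* read 61.7, 58.6 and 63.3 RPKM against 73.8, 76.0 and 78.7 (adjusted p = 0.00688, limma). *AIMP1* was higher at 24.0 ± 0.966 against 21.0 ± 0.598 RPKM (adjusted p = 0.0292, limma), as was *EEF1E1*, also called AIMP3, at 21.4 ± 0.875 against 18.0 ± 1.43 (adjusted p = 0.0487, limma). With 1 library left out, *AIMP1* stayed called only without control replicate 1 (adjusted p = 0.0452, limma) and *EEF1E1* only without control replicate 3 (0.0225), with values up to 0.101 and 0.147 in the others. *AIMP2* stayed called in all 6.

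Of the 20 cytosolic genes, 12 are generally recorded as ATF4-induced and 8 are not. Among the 12 recorded as induced, 9 were lower, 0 were higher and *LARS*, *NARS* and *TARS* were not called, with log2 fold changes from -0.61 to -0.01 and a median of -0.31. Among the other 8, 0 were lower, *HARS*, *RARS* and *VARS* were higher, and the range was 0.01 to 0.31 with a median of 0.13. Of all tested genes, 7.36% were called lower and 5.62% higher. The summed RPKM of the first 12 was 621.1, 623.1 and 607.6 in HGC27-FN1 3′-UTR cells and 770.3, 771.3 and 750.2 in HGC27-control cells. The sum of the other 8 was 444.1, 429.6 and 423.1 against 379.9, 396.5 and 412.7. The sums of the lines did not overlap for either group, and they lay in opposite orders. The promoter letters stood in 7 of the 10 induced genes with a window (70.0%) and in 0 of the other 6. Of those 7, *AARS*, *CARS*, *GARS*, *IARS* and *MARS* were lower and *NARS* and *TARS* were not called. *EPRS*, *SARS* and *WARS* were lower with no match in their windows. This division was made with results of these libraries known, so it is not independent evidence of a direction.

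**Figure D3:**
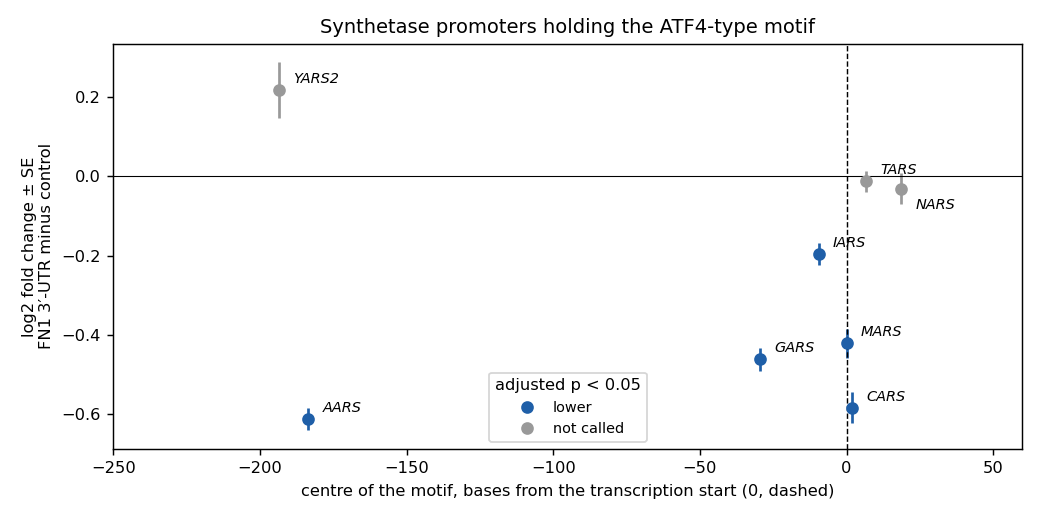
Log2 fold change of the transcript (vertical axis, ± SE from limma, n = 3 libraries per group) against the position of the TGATGNAA match in its promoter, in bases from the annotated start (horizontal axis, start dashed), for the 8 synthetase genes with a match. The matches of 6 genes lie between base -33 and base 22 and those of *AARS* and *YARS2* lie farther upstream, and genes called lower (blue) and not called (grey) occur at both.

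Transcripts of the wider amino acid response were lower as well. Of 25 genes on that list, *CBS* fell under the filter. Of the other 24, 18 were lower and 0 were higher, against 7.36% and 5.62% of all tested genes. Their median log2 fold change was -0.50. *ATF4* itself read 153.2, 152.0 and 153.1 RPKM against 244.3, 239.2 and 246.3 (log2 fold change -0.67 ± 0.03, adjusted p = 1.90e-04, limma). *ASNS*, whose promoter letters are shown above, read 10.5, 10.6 and 10.6 against 25.60, 25.03 and 25.36 RPKM (log2 fold change -1.25 ± 0.03, adjusted p = 6.61e-05, limma). Its decrease was larger than that of any synthetase. *DDIT4*, *NUPR1* and *CHAC1*, stress-response genes, were also lower by more than 1 on the log2 scale (-1.50, -1.27 and -1.04). *DDIT3* (11.2 against 17.2 RPKM) and *TRIB3* (2.71 against 4.21 RPKM), which act after ATF4 in stressed cells, were lower by 0.61 and 0.62, and *ATF3* was not called (-0.24, adjusted p = 0.0929, limma). The letters stood in 5 of the 20 promoters of this list with a window (25%).

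*WARS* is also known as an interferon-induced gene. On an interferon list, 7 of 12 tested genes were higher, against 5.62% of all tested genes, and 0 were lower. The median log2 fold change was 0.46, while *WARS* was lower. The other 5 tested genes were not called, with log2 fold changes down to -0.19. *IRF1* was among these 5 (0.06, adjusted p = 0.826, limma). *IFIT3* and *ISG15* were higher by 1.22 and 1.07 on the log2 scale. *OAS1* and *IFIT2* were higher by 1.32 and 1.01 from low levels. With 1 library left out, *OAS1* was called in 0 of the 3 fits in which it passed the filter (adjusted p = 0.0506 to 0.0850, limma) and *IFIT2* in 2 of 6 (0.0422 to 0.0788).

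Mitochondrial synthetases were far less abundant, and most were not called. Summed over the class, they gave 145.9, 144.5 and 145.1 RPKM in HGC27-FN1 3′-UTR cells and 142.5, 146.0 and 146.6 in HGC27-control cells, and the lines overlapped. The cytosolic sums were 1065.3, 1052.7 and 1030.7 against 1150.2, 1167.8 and 1162.9. The ratio of the sums was 7.30, 7.29 and 7.10 against 8.072, 7.998 and 7.935. It was thus lower in each HGC27-FN1 3′-UTR library than in any control library. Sums weigh the abundant genes most, and the median RPKM of the cytosolic class lay the other way. That median was 45.1, 44.1 and 44.0 in HGC27-FN1 3′-UTR cells and 41.4, 42.9 and 43.6 in HGC27-control cells. Replicate error was larger in the mitochondrial class. Its median SD was 5.38% of the mean in HGC27-FN1 3′-UTR cells and 3.84% in the controls, against 2.89% and 2.41% for the cytosolic genes. The lowest read number behind a value was 37 for a mitochondrial and 1390 for a cytosolic gene, so small changes were harder to detect in the mitochondrial class.

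Decreases were called for 2 mitochondrial genes. *PARS2*, for the mitochondrial prolyl enzyme (chromosome 1, 54756898 to 54764514, minus strand), was the lowest of all members and read 0.964, 1.19 and 1.24 RPKM against 1.85, 1.48 and 1.68 (log2 fold change -0.53 ± 0.13, adjusted p = 0.0429, limma). *RARS2*, for the mitochondrial arginyl enzyme (chromosome 6, 87514378 to 87590003, minus strand), read 10.8, 11.4 and 10.6 against 12.5, 12.1 and 12.7 RPKM (log2 fold change -0.19 ± 0.04, adjusted p = 0.0309, limma). The libraries of the lines were apart for both, but the calls were not firm. With 1 library left out, *PARS2* was called in none of the 6 fits (adjusted p = 0.0658 to 0.110, limma) and *RARS2* only without HGC27-FN1 3′-UTR replicate 2 (0.0458, and up to 0.0979 in the others). With median-ratio scaling both were lost (0.0579 and 0.0685).

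Of the 14 other mitochondrial genes, *IARS2*, for the isoleucyl enzyme, was the most abundant at 36.8 ± 0.500 RPKM against 35.2 ± 0.226, and *HARS2*, for the histidyl enzyme, followed at 18.3 ± 0.228 against 18.2 ± 0.207. The interval of the *HARS2* log2 fold change ran from -0.06 to 0.07. *TARS2* was at 15.7 ± 0.420 against 16.3 ± 0.844 RPKM. *YARS2*, for the tyrosyl enzyme and the one mitochondrial gene with the promoter letters, was at 7.08 ± 0.434 against 6.08 ± 0.435 RPKM (log2 fold change 0.22, adjusted p = 0.0951, limma). Its libraries did not overlap, and its direction was opposite to that of *YARS*. Libraries were also apart and higher for *VARS2* (7.43 ± 0.125 against 7.16 ± 0.154 RPKM), *IARS2*, *NARS2* (6.37 ± 0.0768 against 6.03 ± 0.298) and *EARS2* (8.71 ± 0.633 against 7.96 ± 0.1004), none of which was called. In all, 5 of the 16 mitochondrial genes were apart and higher and 2 apart and lower, against 14.3% and 21.7% of all tested genes. *VARS2* shares 22.0% of its exonic length with *GTF2H4*, and *SARS2* (4.12 ± 0.307 against 3.82 ± 0.438 RPKM) 46.2% with another row, both on the same strand, so these 2 values are uncertain. *AARS2* (6.03 against 6.05 RPKM), *CARS2* (3.74 against 3.78) and *FARS2* (7.33 against 7.49) had log2 fold changes between -0.04 and -0.01. *LARS2* (6.16 ± 0.294 against 6.81 ± 0.339), *WARS2* (3.06 ± 0.203 against 3.38 ± 0.120) and *MARS2* (2.31 ± 0.207 against 2.67 ± 0.347) had the most negative values, -0.14, -0.14 and -0.20.

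Of the 20 cytosolic genes, 16 were then set against the mitochondrial gene of the same amino acid within a library, a ratio that library scaling cannot change. *DARS*, *GARS*, *KARS* and *QARS* had no partner among the members, and *EPRS* and *FARS2* each entered 2 of the 17 pairs. The ratio of *AARS* to *AARS2* was 11.0 in HGC27-FN1 3′-UTR cells and 16.8 in HGC27-control cells (geometric means), that of *SARS* to *SARS2* 18.7 and 28.8, that of *CARS* to *CARS2* 2.45 and 3.66, and that of *YARS* to *YARS2* 3.00 and 4.42. Of 17 pairs, 7 had lower ratios in all 3 HGC27-FN1 3′-UTR libraries than in any control library, the others being *EPRS* to *EARS2*, *IARS* to *IARS2* and *WARS* to *WARS2*. Only 3 pairs had higher ratios in this sense. For single genes, the lines were apart and lower in 21.7% of all tested genes and apart and higher in 14.3%. No such share was computed for ratios of 2 genes, and pairs that share a gene are not independent. For arginine, where the cytosolic gene rose and the mitochondrial one fell, the ratio was 3.84 against 2.73, and for valine and histidine it was 6.81 against 6.08 and 1.27 against 1.15. The remaining 7 pairs overlapped, *MARS* to *MARS2* among them (5.59 against 6.51). The ratios of *SARS*, *VARS* and *HARS* are uncertain, since their partners share exonic length with other rows. The largest overlaps with 1 row were 46.2% for *SARS2*, 22.0% for *VARS2* and 17.4% for *HARS2*, the last with *HARS* itself. *SARS2* also shares 10.8% with *MRPS12*, and *HARS2* 4.46% with *ZMAT2*. In an exact permutation test, two-sided, each of the 10 separated pairs reached p = 0.1, the smallest value that 3 against 3 libraries allow, and 0.17 after adjustment over the 17 pairs.

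**Figure D4:**
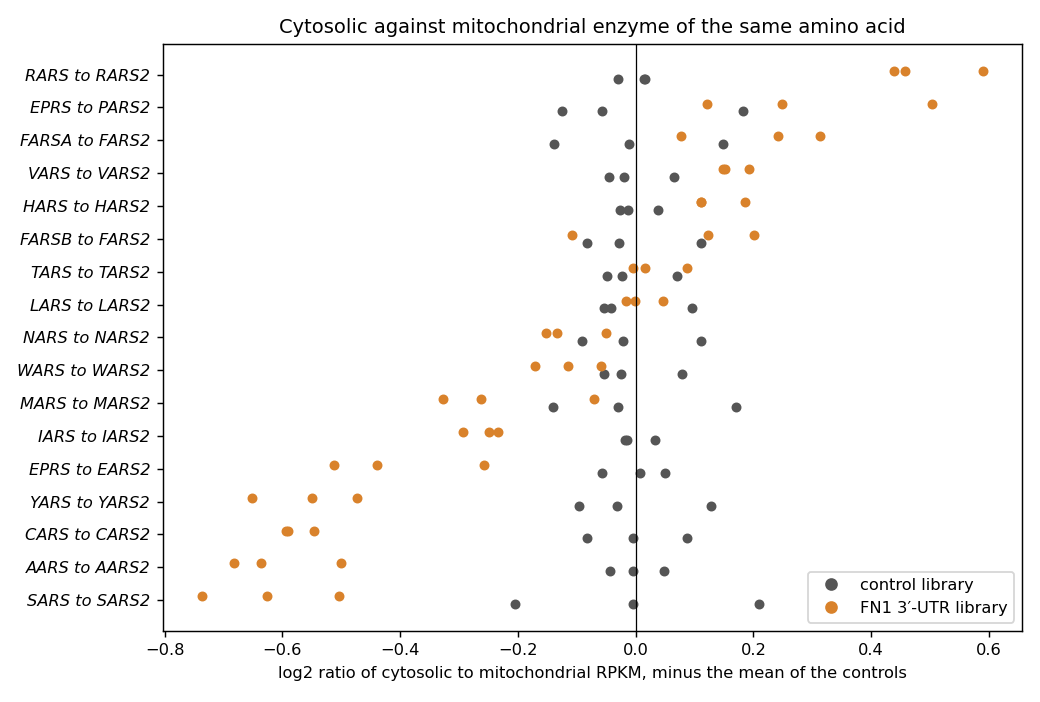
Log2 ratio of the cytosolic to the mitochondrial transcript of the same amino acid in each library, minus the mean of the 3 control libraries (horizontal axis), for the 17 pairs. Each point is 1 library. The ratios of *AARS*, *CARS*, *SARS* and *YARS* lie lower in every HGC27-FN1 3′-UTR library than in any HGC27-control library, and that of *RARS* lies higher.

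Other genes of the tRNA and translation machinery were largely not called. Of 6 cytosolic elongation factor genes, which bring charged tRNA to the ribosome and move it along, 0 were called, with log2 fold changes from -0.19 (*EEF1A2*, adjusted p = 0.0527, limma, and 0.0489 without control replicate 3) to 0.05 (*EEF1D*). *EEF1A1*, *EEF1G*, *EEF1B2* and *EEF2* lay between -0.07 and -0.03. On a list of 11 genes, tRNA factors of proofreading, export and end repair among them, 1 was lower. That gene, *XPOT*, encodes the nuclear export receptor for tRNA, and read 20.1, 20.3 and 19.9 RPKM against 23.6, 22.9 and 23.0 (adjusted p = 0.00827, limma). Of 12 genes for mitochondrial tRNA modification and charging by transamidation, 1 was higher, *PTRH2*, for a peptidyl-tRNA hydrolase, at 17.1 ± 0.209 against 15.0 ± 0.112 RPKM (adjusted p = 0.01004, limma, and 0.0531 without control replicate 2). Of 9 mitochondrial translation factor genes, 0 were called. The medians of these 4 lists lay between -0.05 and 0.05. Over all tested genes, 7.36% were called lower and 5.62% higher, and 1 call in 11 or 12 genes is near these shares.

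**Figure D5:**
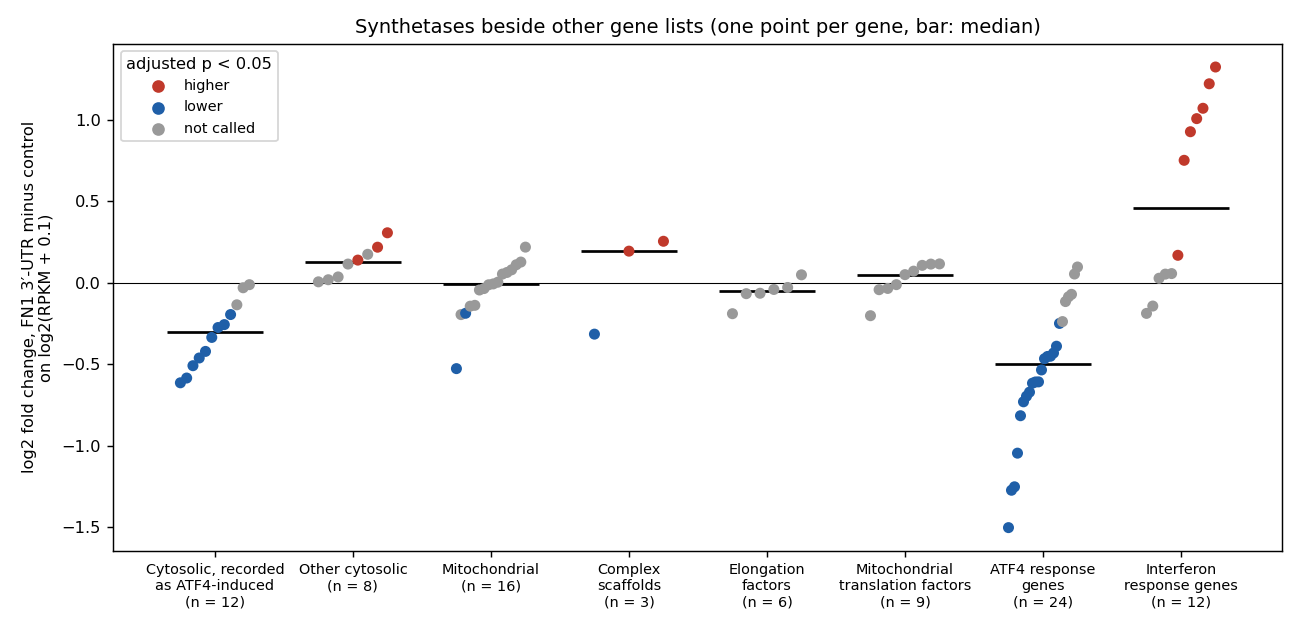
Log2 fold changes of the genes of each list (points) with the list median, for the 2 groups of cytosolic synthetases, the mitochondrial synthetases, related translation genes and the amino acid and interferon responses. Colours give the call. The synthetases recorded as ATF4-induced have a median of -0.31 and the amino acid response genes one of -0.50, while the elongation factors and mitochondrial translation factors lie near 0.

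Markers of cell identity also differed between the lines. Shares over all tested genes were 5.62% called higher and 7.36% lower. Of 7 tested epithelial markers, 5 were higher in HGC27-FN1 3′-UTR cells and 0 lower, and the summed RPKM of the list was 19.4 to 28.5 against 3.63 to 4.09. Of 7 fibroblast markers, 4 were higher and 0 lower, with sums of 171.3 to 174.4 against 116.9 to 134.2 RPKM. Blood and endothelial markers had overlapping sums of 2.79 to 3.10 and 2.90 to 3.37 RPKM, with *PECAM1* at 0 reads in all 6 libraries and *CDH5* at 1 read in all. The share of reads from the mitochondrial genome was 5.37% to 6.72% against 6.20% to 6.96%. The part of these differences in the synthetase results was not tested, and in bulk RNA fewer cells that express a gene and less of its RNA per cell cannot be told apart.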

How the data were processed

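The authors prepared stranded mRNA libraries and deposited RPKM per gene, 1 table per library with replicates kept apart. Per the submitters' processing notes, reads were trimmed with Trimmomatic 0.36, aligned to GRCh38 with STAR 2.5.3a and counted with featureCounts of Subread 1.5.1. The strand setting, annotation release and duplicate handling are not given in the sources used here. Groups and replicate numbers came from the sample labels. RPKM multiplied by gene length gave whole reads for 100% of values within a tolerance of 0.01 reads, and reads of same-group libraries differed by more than sampling noise (chi-square per gene 2.67 to 6.19).

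limma 3.58.1 in R 4.3.3 was fitted to log2(RPKM + 0.1) with group as the only term and a trend in the prior variance. P-values were adjusted over all tested genes. The fit was also run on simulated reads in which 200 genes were changed. It recovered 185 of them at 1.5-fold and 32 at 1.25-fold, and called 26 and 5 unchanged genes. A change of 1.25-fold was thus mostly missed in the simulation. The spread of the simulated reads was set and not estimated from these libraries. Alternatives were other pseudocounts, filters and scalings, no trend, voom on the recovered reads, the replicate number as a block and each library left out. Members and lists were chosen with earlier results of these data known. Leaving out libraries for the pair ratios was added after seeing the data. Every member is reported, called members with each library's value. Of other lists, named genes were those past both thresholds, all of lists of up to 6 genes, and 8 set by name (1 of them is not reported here), beside *FN1*. *XPOT* and *PTRH2* were named as the single called genes of their lists, after their values were seen. Gene models matched GENCODE release 29 by symbol for all 36 members, and 33 had the same span. Tables used Python 3.11.15, pandas 2.3.3, numpy 2.4.6 and scipy 1.17.1, and figures matplotlib 3.10.9.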

Additional observations from a re-analysis of the deposited data

How the results depend on the processing

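Each member was refitted under 14 alternatives. Of the 504 values so obtained, 38 lost the call and 6 gained one. The sign changed in 18, all of them values near 0 that were not called. *AARS*, *CARS*, *EPRS*, *GARS*, *MARS*, *SARS*, *WARS* and *YARS* were called in all 14, *IARS* and *RARS* in 12, *HARS*, *VARS* and *RARS2* in 6 and *PARS2* in 4. The 9 cytosolic decreases numbered 8 to 10 throughout. The 3 cytosolic increases became 1 without the variance trend and 0 to 3 with 1 library left out. The 2 mitochondrial decreases became 0 with median-ratio scaling or without the trend, 1 without the filter and 0 to 1 with 1 library left out, and voom gave 1 mitochondrial increase (*YARS2*). Median-ratio scaling moved the cytosolic median from -0.0833 to -0.0486 and the mitochondrial one from -0.0101 to 0.0239, and with 1 library left out their difference of -0.0731 ran from -0.1047 (without HGC27-FN1 3′-UTR replicate 1) to -0.0487. The 3 higher pair ratios became 3 to 5 with 1 library left out. Over all genes, voom called 2042 higher and 3066 lower, and leaving out 1 library 501 to 927 and 470 to 1015. The cause of these changes was not tested, beyond the smaller number of libraries.

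Over the tested genes, libraries with the same replicate number did not deviate together (correlations 0.00244, 0.0211 and 0.0103), so no shared effect of the number was seen. This cannot show whether same-numbered libraries were prepared together, which the labels do not say. A replicate block in the fit left 564 of all genes higher and 598 lower, and 8 cytosolic genes were lower, 0 higher and 0 mitochondrial genes lower. Adjusted p was 0.0511 for *IARS* and 0.0527 for *RARS* in this fit.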
